A study of Mus musculus with 8 samples.

Results

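Potassium, sodium and pacemaker channel genes were taken as every row of the deposited mouse heart gene table whose name begins with Kcn, or is an Scn gene ending in a number and a or b, or is an Hcn gene ending in a number. The rule found 110 of 30445 genes, and 83 of them had enough counts to be tested. The labelled Mertk knockdown group had 4 libraries from hearts of C57 mice collected 8 weeks after transverse aortic constriction, an operation that narrows the aortic arch and makes the left ventricle pump against raised pressure. The wildtype group had 4 libraries from operated C57 hearts at the same time, so that surgery is shared and no unoperated heart was analysed here. The labels say knockdown in the titles and KO in the library names, and they do not give the allele, the driver, the cells in which Mertk was lowered, or whether a replicate was 1 mouse or a pool. The study's title concerns macrophage MERTK, a receptor for dying cells, in pressure overload.

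Potassium channels carry the outward currents that end the cardiac action potential and hold the resting potential. Sodium channels carry its upstroke, and the hyperpolarization-activated HCN channels carry the inward pacemaker current of nodal cells. Pore-forming subunits work with smaller auxiliary subunits that set gating and surface delivery, and loss of several of the potassium currents is a textbook feature of hypertrophied and failing myocardium. In the mouse ventricle repolarization relies mainly on fast transient outward and slowly inactivating currents rather than on the delayed rectifiers that dominate in larger mammals.

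Total counts ran from 63378755 to 68762911 in the labelled Mertk knockdown libraries and from 59287621 to 71571173 in wildtype. Mertk itself was not lower in the labelled libraries, at 11.9 ± 0.951 CPM (counts scaled to a common library size by TMM) against 11.1 ± 0.87 CPM in wildtype (SD, n = 4 each; log2 fold change 0.10, edgeR adjusted p = 0.766), so each direction below is that of the labels. Cardiomyocyte markers (9 of 9 in the table) summed to 46400 to 53500 CPM in the labelled libraries and 33400 to 45100 CPM in wildtype. The groups overlapped for all of them but Myh6 (mean 18090 CPM in labelled libraries, 10820 CPM in wildtype) and Actc1 (7883 and 5315 CPM). Log2 fold changes were above 0 for 7 markers and below 0 for 2, Tnnt2 (−0.12) and Actn2 (−0.06). The part of these markers in the channel values was not tested. Libraries also stood apart from others of their group. Hepatocyte markers (8 of 8 in the table) summed to 132 to 200 CPM in the labelled libraries. In wildtype they summed to 195 CPM in replicate 1 and to between 7.07 and 8.95 CPM in replicates 2 to 4, with Alb at 0 in wildtype replicate 4. The atrial markers Sln, Myl7, Myl4 and Bmp10 summed to 606 CPM in labelled replicate 4, 339 CPM in wildtype replicate 3 and 201 CPM in wildtype replicate 4, and to at most 3.71 CPM in the other 5 libraries. Sln was at 0 in labelled replicates 1 to 3 and in wildtype replicate 1, and Bmp10 was at 0 in labelled replicate 4. Below, libraries with or low in atrial markers are named by these 4 genes of a list of 7. The rest of the list divides the libraries otherwise. In wildtype replicate 2, Dkk3 was at 33.8 CPM, near the 34.3 CPM of wildtype replicate 3, while Stard10 was at its lowest there (2.08 CPM). Dkk3 was at 4.20 to 6.60 CPM in labelled replicates 1 to 3 and 5.88 CPM in wildtype replicate 1.

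Promoter sequences are shown for the genes whose higher levels in the labelled libraries had the smallest p-values, and for Hcn4 as the nodal pacemaker gene beside Hcn2, where RefSeq (GRCm38.p6, the mm10 build) holds an entry. Each run is the 100 bases before the RefSeq transcription start, 5′ to 3′ on the gene's strand, with the GC box letters GGGCGG, or CCGCCC on the other strand, in capitals. The windows are chr15:79505242-79505341 (minus strand) for Kcnj4, chr6:142571615-142571714 (minus) for Kcnj8, chr10:79716534-79716633 (plus) for Hcn2, chr7:46396368-46396467 (plus) for Kcnc1 and chr9:58822849-58822948 (plus) for Hcn4.
Kcnj4: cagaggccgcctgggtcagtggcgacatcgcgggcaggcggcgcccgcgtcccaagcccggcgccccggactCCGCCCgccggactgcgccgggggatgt
Kcnj8: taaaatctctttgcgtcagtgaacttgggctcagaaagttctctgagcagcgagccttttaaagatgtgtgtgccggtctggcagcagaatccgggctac
Hcn2: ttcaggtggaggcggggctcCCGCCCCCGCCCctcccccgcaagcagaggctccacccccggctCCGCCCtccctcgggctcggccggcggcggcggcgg
Kcnc1: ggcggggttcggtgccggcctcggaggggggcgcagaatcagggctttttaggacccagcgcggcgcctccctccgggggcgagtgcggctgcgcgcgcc
Hcn4: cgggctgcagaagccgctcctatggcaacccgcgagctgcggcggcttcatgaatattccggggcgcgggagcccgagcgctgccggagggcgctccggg
Hcn2 held 3 GC boxes in this window and Kcnj4 held 1, while Kcnj8, Kcnc1 and Hcn4 held 0. Over 250 bases before the start the GC content was 70.4% for Hcn2, 77.2% for Kcnj4, 74.4% for Kcnc1, 71.2% for Hcn4 and 49.2% for Kcnj8. Of the 110 channel genes, 78 matched a RefSeq promoter on the same chromosome and strand, and 59 of these were tested genes. GGGCGG on either strand lay within the 250 bases of 39.0% of the 59 tested channel genes and of 49.2% of all 15079 matched genes. TATAAA on either strand lay in 0 of the 59, against 8.57% of all matched genes. These are letter matches and say nothing of which factors bind.

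No channel gene passed the test between labelled Mertk knockdown and wildtype hearts. By edgeR's quasi-likelihood test with Benjamini-Hochberg adjustment over 17787 genes, 0 of 83 channel genes were called at an adjusted p under 0.05, against 0.647% of all tested genes (115 genes). DESeq2 called 1 channel gene, against 672 of 17724 genes over all. It gave no adjusted p to Kcnj4, Kcnrg or Hcn3, so these could not be called there. Limma on log2(FPKM + 1) called 1 channel gene, Kcnj4, against 70 of 17787 genes over all. At an unadjusted p under 0.05 there were 8 channel genes (9.64%), against 12.4% of all tested genes. Of these, 5 had higher and 3 lower levels in the labelled libraries, where the shares over all genes were 6.11% and 6.32%. All libraries of a group lay on the same side of the other group for 2 channel genes (2.41%), Kcnj4 and Kcnrg, against 8.07% of all tested genes. Of 42 channel genes on a cardiac list, all tested, 0 were called by edgeR and the median log2 fold change was 0.10. The same 8 genes with an unadjusted p under 0.05 all lay on that list (19%, against 12.4% of all tested genes). The list was chosen with earlier results of these data known, so this share is no evidence about cardiac channels. The p-values measure only the spread between these libraries, since the labels do not say that replicates are separate mice. The median log2 fold change of all 83 channel genes was 0.05, with 44 above and 39 below 0, and that of all tested genes was 0.00.

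The precision differed widely between members. The 95% interval of the log2 fold change lay within −1 to 1, a doubling or halving, for 29 of the 83 genes, and within −0.5 to 0.5 for 8. It was wider than 4 log2 units for 14 genes. Of the 27 members below the count filter, none was without counts, and the highest, Kcnq3, had 94 counts summed over the 8 libraries. The lowest tested member, Kcng4, had 81, because the filter looks at counts per library and not at their sum. Levels between genes are given in the deposited FPKM, fragments scaled by transcript length and library size, since counts grow with transcript length. By that scale 28 members averaged at least 1 FPKM, 6 averaged at least 10 FPKM, and 55 of the tested members averaged under 1 FPKM. The leading 10 members held 71.5% to 74.9% of the summed FPKM of all members in the labelled libraries and 69.9% to 74.3% in wildtype.

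**Figure D1:**
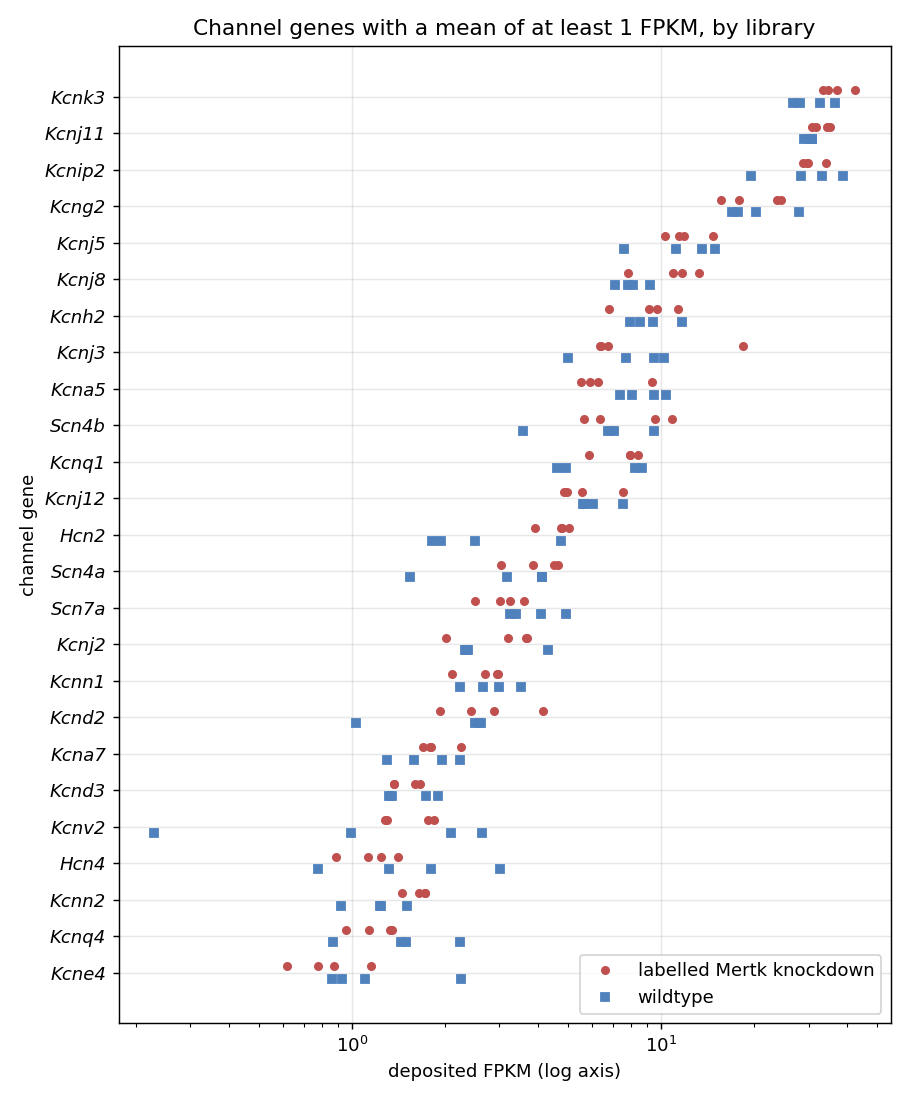
Deposited FPKM (log axis) of 25 channel genes with a mean of at least 1 FPKM; each point is 1 library, labelled Mertk knockdown as red circles above wildtype as blue squares. Kcnk3, Kcnj11, Kcnip2, Kcng2 and Kcnj5 lie at 10 FPKM or more on average, and the points of the groups overlap for every gene shown.

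The highest levels belonged to the genes of a leak channel, an ATP-sensitive channel and a transient outward subunit, among others, and none of these passed the test between the groups. Kcnk3, a tandem-pore leak channel that sets the resting potential, averaged 36.9 ± 4.07 FPKM in labelled libraries and 31.0 ± 4.54 FPKM in wildtype (SD, n = 4 each here and below). Kcnj11, the pore of the sarcolemmal ATP-sensitive potassium channel, averaged 33.0 ± 2.19 FPKM in labelled libraries and 30.1 ± 0.764 FPKM in wildtype. Both genes and Kcnip2 (30.6 ± 2.35 FPKM in labelled libraries and 30.0 ± 8.19 FPKM in wildtype), the calcium-sensing auxiliary subunit of the transient outward current, overlapped in their ranges over the libraries. Below them, Kcng2, an electrically silent subunit that modifies other voltage-gated pores, averaged 20.4 ± 4.34 FPKM in labelled libraries and 20.7 ± 4.96 FPKM in wildtype.

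Among the voltage-gated potassium genes, none of the pores of the transient outward and slowly inactivating currents passed. Of 20 tested genes of the wider family, which is not limited to those pores, 12 had values above and 8 below 0. Kcna5, a pore of the slowly inactivating current that is also prominent in atria, had 20.3, 29.5, 18.1 and 16.96 CPM in the labelled libraries, against 25.8, 29.1, 25.0 and 31.7 CPM in wildtype. Labelled replicate 2 lay within the wildtype range and the other 3 labelled libraries below it, so the groups overlapped. On the log2 scale the difference was −0.40 (SE 0.17), which did not pass (edgeR adjusted p = 0.376). Kcnd2 and Kcnd3, the pores of the fast transient outward current, had log2 fold changes of 0.35 (interval −0.40 to 1.11) and −0.10 (−0.47 to 0.26). Their partner Kcnip2 had 0.00 (−0.44 to 0.44). Kcna4, which carries the slow transient outward current, was low at 1.3 ± 0.666 CPM in labelled libraries and 1.71 ± 0.925 CPM in wildtype. Its log2 fold change was −0.39 (SE 0.47). Kcnc1, a pore best known from fast-spiking neurons, had 5.96, 7.20, 1.58 and 2.77 CPM in the labelled libraries, against 1.34, 1.63, 2.65 and 1.83 CPM in wildtype. Labelled replicates 1 and 2 were high while replicate 3 lay within wildtype, and the difference did not pass (log2 fold change 1.23, SE 0.45, edgeR adjusted p = 0.294).

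No delayed rectifier gene passed. Kcnh2, the pore of the rapid delayed rectifier, had 48.9 ± 9.06 CPM in labelled libraries and 50.4 ± 7.17 CPM in wildtype, a log2 fold change of −0.04 (95% interval −0.37 to 0.29). Kcnq1, the pore of the slow delayed rectifier, had 33.7 ± 4.5 CPM in labelled libraries and 29.8 ± 8.51 CPM in wildtype, a log2 fold change of 0.18 (−0.26 to 0.61). For Kcnq1 the value was 0.04 (SE 0.17) without wildtype replicate 1. With the hepatocyte marker score as a covariate it was 0.76 (SE 0.20), which did not pass (edgeR adjusted p = 0.227). Hepatocyte markers were high in all labelled libraries and, of wildtype, in replicate 1 alone, so the adjusted value rests largely on that library. Kcne1, the partner of Kcnq1, was less certain. It had 2.13, 2.05, 2.18 and 5.94 CPM in the labelled libraries, against 0.489, 2.47, 0.607 and 2.87 CPM in wildtype. Labelled replicate 4 stood above all others, and wildtype replicates 1 and 3 below all others, so that its fold change of 0.93 on the log2 scale had an SE of 0.62 (edgeR adjusted p = 0.605). It was 0.40 (SE 0.59) without labelled replicate 4. With the hepatocyte score as a covariate it was 2.90 (SE 0.79, edgeR adjusted p = 0.254), again resting largely on wildtype replicate 1. Kcne4, an auxiliary subunit that inhibits several voltage-gated pores, had 2.34, 1.81, 2.49 and 3.32 CPM in the labelled libraries, against 2.78, 6.43, 2.72 and 3.12 CPM in wildtype. Only wildtype replicate 2 stood out, and the log2 fold change was −0.60 (SE 0.31, edgeR adjusted p = 0.494), and −0.20 (SE 0.24) without that library. The beta subunits Kcnab1 and Kcnab2 had −0.04 (SE 0.49) and 0.26 (SE 0.50).

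**Figure D2:**
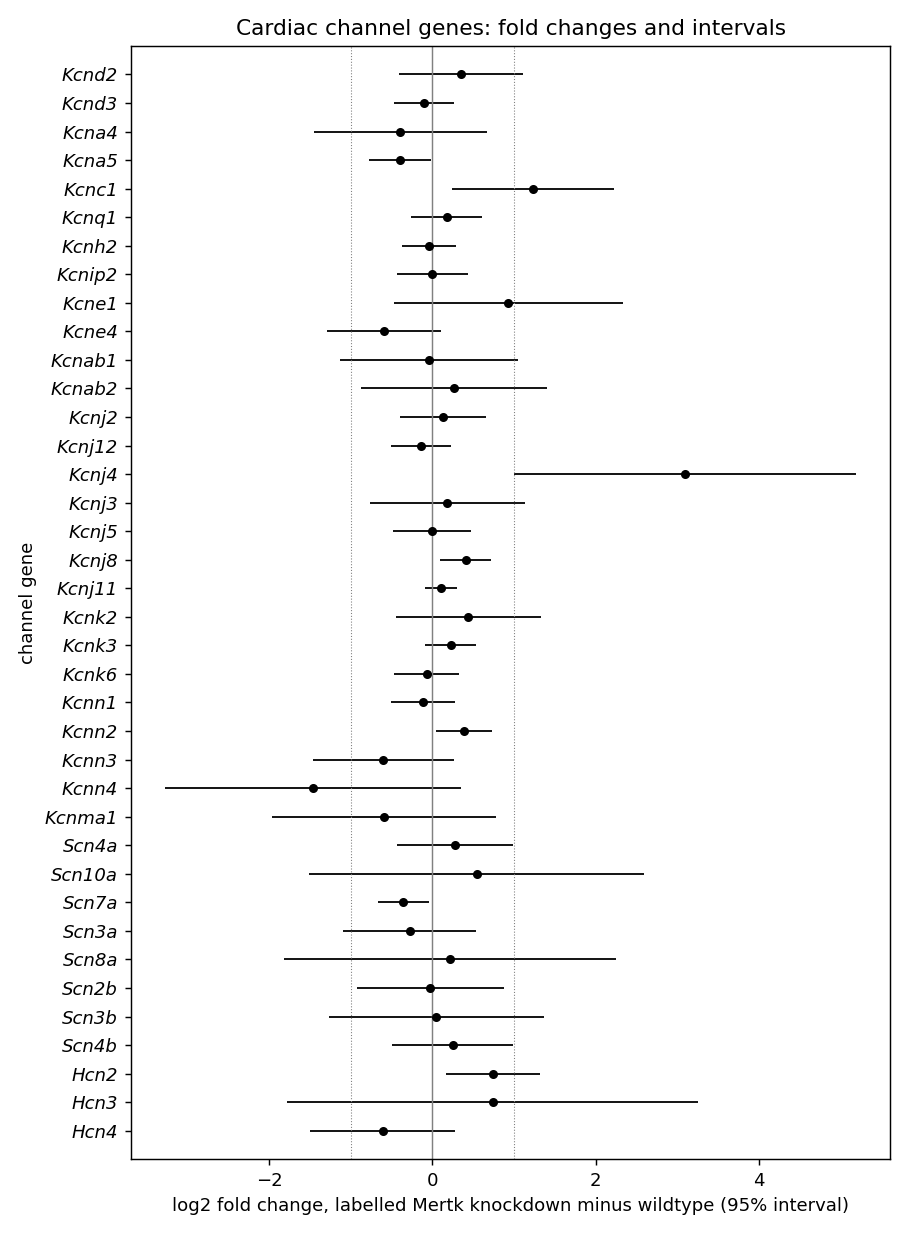
Log2 fold change (labelled Mertk knockdown minus wildtype) with its 95% interval for 38 channel genes of the cardiac list, from edgeR on 4 libraries a group; dotted lines mark −1 and 1. The intervals of Scn7a and Kcna5 lie below 0 and those of Kcnj4, Kcnc1, Hcn2, Kcnj8 and Kcnn2 above 0, and none of those shown passed adjustment over all genes.

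The inward rectifiers gave 1 of the 2 genes without overlap. Kcnj4, a strong inward rectifier that sits beside Kcnj2 and Kcnj12 in the current that holds the resting potential, had 0.679, 0.936, 0.595 and 0.748 CPM in the labelled libraries, against 0.189, 0.151, 0 and 0 CPM in wildtype. In counts these are 45, 62, 38 and 51 in the labelled libraries, against 12, 10, 0 and 0 in wildtype, where 0 counts allow up to 0.052 CPM in replicate 3 and 0.0407 CPM in replicate 4. All 4 labelled libraries lay above all 4 wildtype libraries, at a level of 0.311 ± 0.0596 FPKM in the labelled group and 0.0347 ± 0.0402 FPKM in wildtype. The log2 fold change of 3.09 (SE 0.94) missed the threshold (edgeR adjusted p = 0.206). The more abundant genes of the same current had fold changes near 0. Kcnj2 had 0.13 (−0.39 to 0.66) and Kcnj12 −0.14 (−0.50 to 0.23) on the log2 scale. Of the 10 tested inward rectifiers, 5 had values above and 5 below 0. Kcnj4 lies on chromosome 15 at 79483714 to 79505241 on the minus strand.

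The ATP-sensitive channel genes had fold changes above 0 that did not pass. Kcnj8, the pore found in smooth muscle and pericytes, had 22.5, 30.6, 36.2 and 31.9 CPM in the labelled libraries, against 26.1, 22.3, 21.5 and 21.2 CPM in wildtype. Labelled replicates 2 to 4 lay above all wildtype libraries and labelled replicate 1 within them (log2 fold change 0.41, SE 0.14, edgeR adjusted p = 0.266). Abcc9, the gene of a regulatory subunit of ATP-sensitive channels, had 292, 367, 270 and 294 CPM in the labelled libraries, against 257, 162, 235 and 210 CPM in wildtype. There the groups did not overlap, and the log2 fold change of 0.50 (SE 0.15) did not pass either (edgeR adjusted p = 0.205). Kcnj11 and the other regulatory subunit gene Abcc8 had 0.11 (SE 0.09) and 0.14 (SE 0.13). Smooth muscle and pericyte markers (7 of 7) summed to 670 to 778 CPM in the labelled libraries and 566 to 772 CPM in wildtype, and endothelial markers (7 of 7) to 666 to 788 CPM in the labelled libraries and 540 to 621 CPM in wildtype. Their part in the Kcnj8 values was not tested, and in bulk tissue more cells of a type and more RNA per cell cannot be told apart.

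Kcnj3 and Kcnj5, which form the acetylcholine-gated potassium channel of atria and nodes, varied more within groups than between them. Kcnj3 had 39.7, 36.4, 35.8 and 103 CPM in the labelled libraries, against 44.9, 28.0, 63.3 and 52.9 CPM in wildtype. The highest 3 values were in the 3 libraries with atrial markers, labelled replicate 4 and wildtype replicates 3 and 4. The log2 fold change was 0.18 (SE 0.41), and without labelled replicate 4 it was −0.34 (SE 0.24, edgeR adjusted p = 0.685). Kcnj5, at 12.1 ± 1.9 FPKM in labelled libraries and 11.8 ± 3.22 FPKM in wildtype, was highest in wildtype replicate 3 at 83.0 CPM and labelled replicate 4 at 74.1 CPM, and lowest in wildtype replicate 2 at 38.0 CPM. Its log2 fold change was 0.00 (SE 0.21). Over the whole atrial list of 7 markers, the summed level was 196 to 2030 CPM in the labelled libraries and 330 to 2350 CPM in wildtype, the highest being wildtype replicate 2 through Nppa, which stress also raises in ventricles. The part of atrial tissue in these values was not tested. Exons of Kcnj3 overlap a long non-coding gene on the opposite strand over 31.1% of their bases, and no source used here gives the strand setting of the authors' counting.

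**Figure D3:**
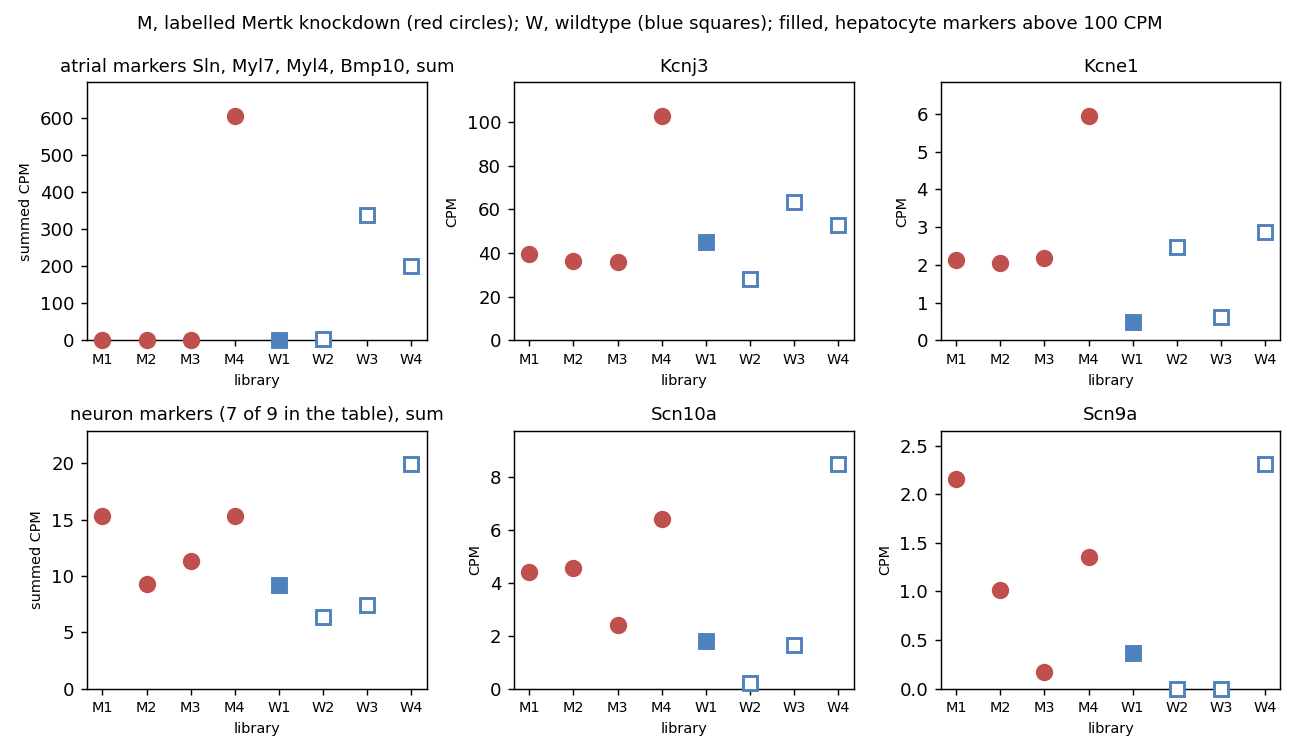
CPM by library of the summed atrial markers beside Kcnj3 and Kcne1 (top), and of the summed neuron markers beside Scn10a and Scn9a (bottom); M is labelled Mertk knockdown, W is wildtype, and filled symbols have hepatocyte markers above 100 CPM. Kcnj3 is highest in the 3 libraries with atrial markers, and Scn10a and Scn9a are highest in wildtype replicate 4, which also has the most neuron marker transcripts at 19.9 CPM.

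Of the 7 tested tandem-pore leak channels 0 were called by edgeR, and Kcnk3 had a log2 fold change of 0.22 (95% interval −0.08 to 0.53). Kcnk2, a stretch-sensitive member, had 0.44 (−0.44 to 1.33) and Kcnk6 −0.07 (−0.47 to 0.33). Among the calcium-activated channels, Kcnn2, a small-conductance pore found in atria and ventricles, had 12.3, 14.3, 13.8 and 13.3 CPM in the labelled libraries, against 12.6, 7.42, 11.03 and 9.89 CPM in wildtype. The groups overlapped through wildtype replicate 1 alone (log2 fold change 0.39, SE 0.15, edgeR adjusted p = 0.331). In the wider family of calcium- or sodium-activated pores, each of the other 6 tested members had a negative value and did not pass. Among them were Kcnn1 at −0.11 (SE 0.18), Kcnn3 at −0.60 (SE 0.39) and Kcnn4, an intermediate-conductance channel of immune cells, at −1.46 (SE 0.81). Kcnma1, the large-conductance channel of smooth muscle, was under 1.5 CPM in all 8 libraries and had −0.59 (SE 0.62).

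Sodium channel genes showed wide scatter within groups, and of 10 tested pores 7 had values above and 3 below 0. The auxiliary beta subunit gene Scn4b had a log2 fold change of 0.25 (95% interval −0.49 to 0.99), and Scn2b and Scn3b, both near 1 CPM, had −0.03 (SE 0.41) and 0.05 (SE 0.59). Scn4a, the skeletal muscle sodium channel, was present at 31.0 ± 6.21 CPM in labelled libraries and 25.6 ± 10.3 CPM in wildtype (log2 fold change 0.28, SE 0.31), while skeletal muscle markers (6 of 6 in the table) summed to 1.1 to 3.31 CPM in labelled libraries and 0.781 to 2.73 CPM in wildtype. Scn7a, a sodium-sensing relative known from glia and other non-excitable cells, had 27.0, 20.3, 23.7 and 28.4 CPM in the labelled libraries, against 26.6, 38.7, 29.7 and 32.0 CPM in wildtype. Wildtype replicate 1 alone lay within the labelled range (log2 fold change −0.35, SE 0.14, edgeR adjusted p = 0.332). Scn3a and Scn8a, best known from brain, had −0.28 (SE 0.37) and 0.22 (SE 0.91).

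The sensory-neuron sodium channel Scn10a, which is also linked to cardiac conduction, had 4.40, 4.55, 2.41 and 6.40 CPM in the labelled libraries, against 1.81, 0.211, 1.67 and 8.47 CPM in wildtype. Wildtype replicate 4 was highest of all and the other 3 wildtype libraries were the lowest of all, so the fold change of 0.54 on the log2 scale had an SE of 0.88. Scn9a and Scn11a, further channels of sensory neurons, had the same library on top, with 2.31 and 3.10 CPM in wildtype replicate 4. Both were at 0 in wildtype replicates 2 and 3. Neuron markers (7 of 9 in the table) summed to 9.27 to 15.3 CPM in the labelled libraries and 6.35 to 19.9 CPM in wildtype, with wildtype replicate 4 on top, and Chat, the enzyme of acetylcholine synthesis, was at 0 in 6 of 8 libraries. Their part in the Scn10a values was not tested.

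Hcn2, the pacemaker family member prominent in ventricular muscle, had 14.2, 16.8, 16.3 and 17.3 CPM in the labelled libraries, against 6.92, 8.57, 6.91 and 16.2 CPM in wildtype. The labelled libraries lay close together and wildtype replicate 4 among them, with the other 3 wildtype libraries well below. The log2 fold change of 0.74 (SE 0.26, with a 95% interval of 0.16 to 1.32) did not pass (edgeR adjusted p = 0.278). Without wildtype replicate 4 it was called, at 1.12 (SE 0.13, edgeR adjusted p = 0.0142). That fit drops the only wildtype library within the labelled range, so the call adds no support for a difference. Leaving out any other library gave 0.61 to 0.80 (edgeR adjusted p from 0.3645 to 0.4581). Wildtype replicate 4 is among the 3 libraries low in hepatocyte transcripts. Of the 5 libraries that hold them wildtype replicate 1 is the lone wildtype one, and the log2 fold change against it alone was 1.23, a value from 1 wildtype library that tests nothing about the groups. Hcn2 lies on chromosome 10 at 79716634 to 79736108, and its GC-rich upstream sequence is the third printed above.

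Hcn4, the main pacemaker channel of the sinoatrial node, had 9.71, 8.37, 5.81 and 7.43 CPM in the labelled libraries, against 9.01, 5.10, 21.9 and 11.8 CPM in wildtype. Wildtype replicate 3 stood highest, and the groups overlapped (log2 fold change −0.61, SE 0.39, edgeR adjusted p = 0.593). Without wildtype replicate 3 the value was −0.14 (SE 0.28). Conduction system markers (6 of 6 in the table) summed to 12.3 to 27.8 CPM in the labelled libraries and 17.3 to 42.3 CPM in wildtype, with wildtype replicate 3 on top. Isl1, the nodal transcription factor of that list, was at 0 in labelled replicate 2 and wildtype replicate 2. In the 5 libraries low in atrial markers the log2 fold change of Hcn4 was 0.19 (SE 0.32), and the part of nodal tissue was not tested. Hcn3 had at most 27 counts and a log2 fold change of 0.74 (SE 1.13), and 17.1% of its exon bases overlap the gene Pklr on the opposite strand.

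**Figure D4:**
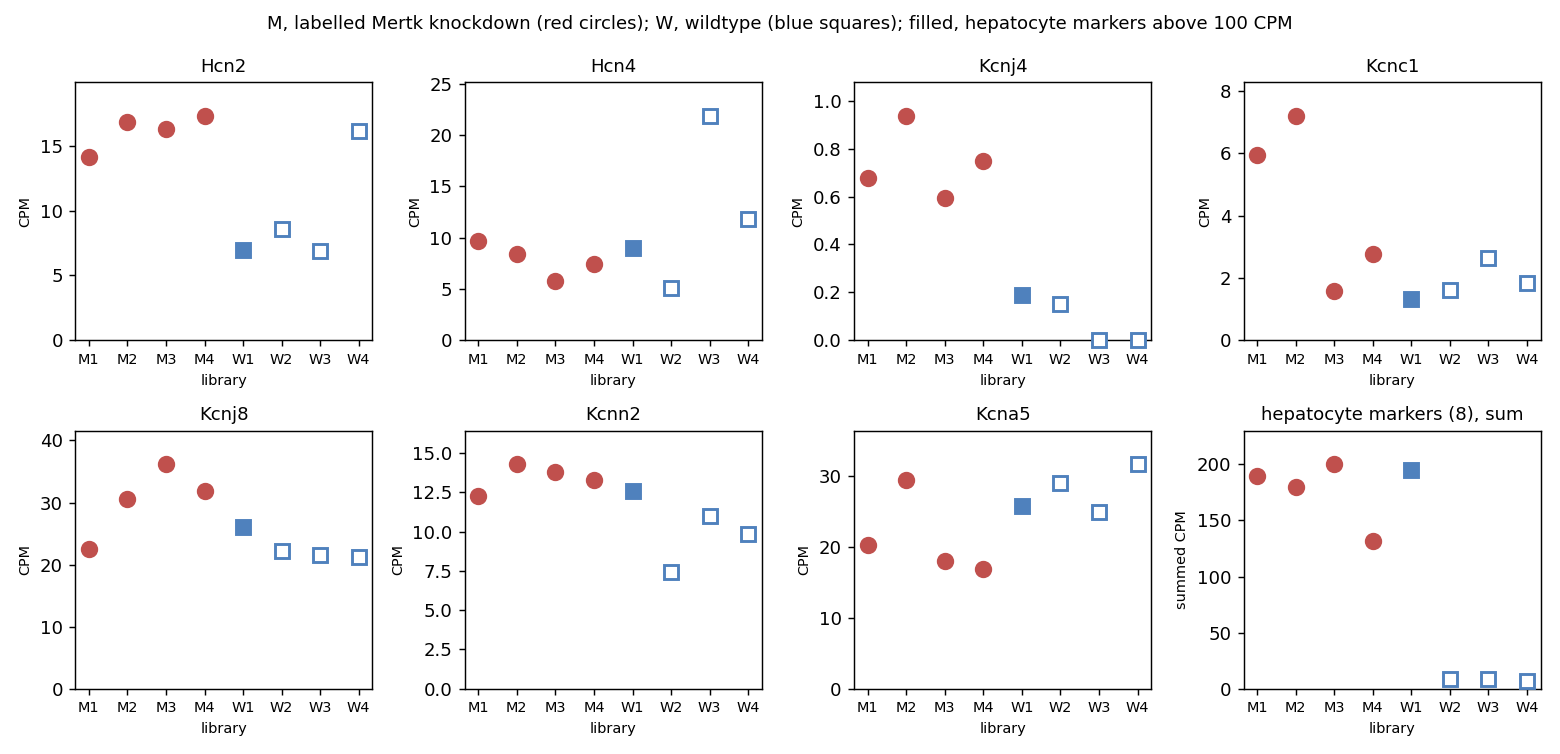
CPM by library of Hcn2, Hcn4, Kcnj4, Kcnc1, Kcnj8, Kcnn2 and Kcna5, with the summed hepatocyte markers in the last panel; M is labelled Mertk knockdown, W is wildtype, and filled symbols have hepatocyte markers above 100 CPM. Wildtype replicate 1 lies within the labelled range for Hcn4, Kcnj8, Kcnn2, Kcna5 and the hepatocyte sum, and below it for Hcn2, Kcnj4 and Kcnc1.

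Values for other members with an unadjusted p under 0.05 were taken in the same way over the 5 libraries with hepatocyte transcripts, 4 labelled ones against wildtype replicate 1 alone, as a description with no test. The log2 fold change there was 1.96 for Kcnj4, 1.72 for Kcnc1, 0.22 for Kcnj8, 0.10 for Kcnn2, −0.09 for Scn7a and −0.28 for Kcna5.

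Wildtype replicate 2 held the lowest level of many abundant channel genes. Of the 25 plotted genes with a mean of at least 1 FPKM, 12 had their lowest level of all 8 libraries there, and the other 7 libraries held the lowest level of 1 to 3 genes each. The same count was not taken over all genes of that level, so it is not shown to be particular to channel genes. Kcnip2 was at 77.0 CPM in wildtype replicate 2, against 111 to 159 CPM in the other wildtype libraries and 117 to 138 CPM in the labelled ones. Kcnd2 was at 5.70 CPM there and at 10.6 CPM or more elsewhere, Scn4a at 11.7 CPM and at 23.0 CPM or more elsewhere, and Kcnv2, a silent modifier subunit, at 1.27 CPM and at 5.39 CPM or more elsewhere. The same library had the highest sum of fibroblast markers (6 of 6 in the table, 1060 CPM, against 477 to 757 CPM in the other 7), and the most Nppa at 2308 CPM. Of the fibroblast markers, Pdgfra and Dpt were highest in labelled replicate 3 instead. The part of fibroblast markers and Nppa in these channel values was not tested. Without wildtype replicate 2, the log2 fold change of Kcnip2 was −0.16 (SE 0.13), that of Kcnd2 0.12 (SE 0.23) and that of Scn4a 0.04 (SE 0.18), and none of these 3 passed in edgeR.

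**Figure D5:**
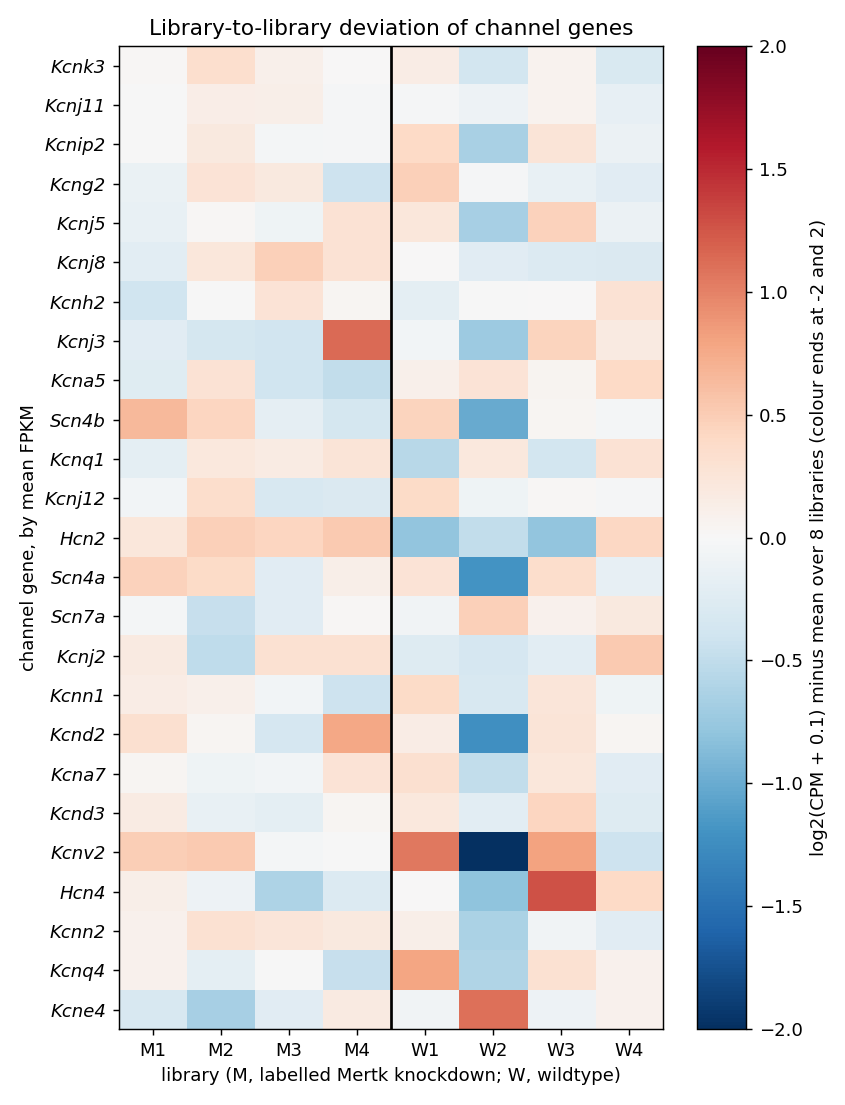
Deviation of log2(CPM + 0.1) from the mean over 8 libraries for 25 channel genes with a mean of at least 1 FPKM, ordered by mean FPKM; M is labelled Mertk knockdown and W is wildtype. Wildtype replicate 2 shows the lowest level for 12 of them, and labelled replicate 4 the highest Kcnj3.

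Outside the channels themselves, 3 name matches of another kind were tested. Kcnrg, a soluble regulator of voltage-gated potassium channels, had 0, 0.196, 0 and 0.205 CPM in the labelled libraries, against 0.457, 0.272, 0.347 and 0.462 CPM in wildtype. The groups did not overlap, on 0 to 14 counts in the labelled libraries and 18 to 34 in wildtype, and the log2 fold change of −1.91 (SE 1.01) did not pass (edgeR adjusted p = 0.494). Kcnq1ot1, the long non-coding RNA that silences its imprinted domain in cis, had 0.20 (SE 0.17), and Kcnd3os, an antisense transcript, −0.59 (SE 0.94).

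Genes that assemble, anchor or regulate these channels were counted from fixed lists, chosen with earlier results of these data known. Of 20 channel partners and 15 regulators of channel expression, all tested, 0 were called by edgeR, 6 had an unadjusted p under 0.05, all with higher levels in the labelled libraries, where over all tested genes the share was 12.4% and that of higher levels 6.11%, and the median log2 fold change was 0.04. The groups did not overlap for 5 of the 35, against 8.07% of all tested genes. Camk2d, the calmodulin-dependent kinase that phosphorylates several cardiac channels, had 133, 144, 126 and 144 CPM in the labelled libraries, against 100.2, 108, 106 and 90.6 CPM in wildtype. All 4 labelled libraries lay above all wildtype ones, and the log2 fold change of 0.43 (SE 0.09) missed the threshold in edgeR (adjusted p = 0.0838) and passed it in DESeq2 (adjusted p = 0.000818). Rangrf, which helps deliver sodium channels to the cell surface, had 0.37 (SE 0.10, edgeR adjusted p = 0.149, DESeq2 adjusted p = 0.0297). The lowest fold changes by p were those of Fgf13, a modulator of sodium channel inactivation, at −0.23 (SE 0.13, edgeR adjusted p = 0.524), and of Klf15, a transcription factor that drives Kcnip2 in mouse heart, at −0.49 (SE 0.30, edgeR adjusted p = 0.574).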

How the data were processed

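Poly(A) RNA from 8 mouse heart libraries was sequenced as strand-marked paired ends, per the labels' protocols. The deposited table holds the authors' raw gene counts and their FPKM values, per the file headers. The submitters' processing notes name cutadapt 1.9, HISAT2 2.2.1, StringTie 2.1.6, DESeq2, edgeR and the mm10 build, without their roles. The strand setting of counting and the annotation release are not given in the sources used here. The members and gene lists were chosen with earlier results of these data known.

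Deposited counts of the 4 labelled Mertk knockdown and 4 wildtype libraries were filtered with filterByExpr, scaled by TMM and tested in R 4.3.3 by edgeR 4.0.16 (glmQLFit and glmQLFTest), unpaired, with Benjamini-Hochberg adjustment over all tested genes and a threshold of 0.05. CPM values use TMM-scaled library sizes. A count of 0 was taken to allow up to 3 counts, which covers counting error only. DESeq2 1.42.0, limma 3.58.1 on log2(FPKM + 1) and log2(FPKM + 0.1), other filters and scalings, left-out libraries, a replicate block, marker covariates and library subsets were alternatives. The fit was tested on simulated data. No pair of libraries of the same group agreed within sampling noise, and pairs across the groups were not compared.

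Named members were those of a fixed cardiac excitability list, every member called, the 5 tested members with the smallest unadjusted p in each direction and every tested member without overlap between the groups. Of the partner and regulator lists, called genes and the 2 with the smallest p in each direction were named. Abcc8, Abcc9, Scn9a, Scn11a, Kcng2, Kcng4, Kcnq3, Kcnv2, Kcnq1ot1 and Kcnd3os were chosen outside the rule after their values were seen. Replicate numbers are not stated to pair libraries. Promoters came from RefSeq for GRCm38.p6. Results for some channel genes are not reported here, though they enter the counts over all members.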

Additional observations from a re-analysis of the deposited data

Results flagged for a closer look

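In 6 of 86 groups of 4 libraries, 1 library lay far from the other 3 by Dixon's 95% criterion, and chance alone gives about 1 group in 20. Kcnip2 was at 137.9 CPM in labelled Mertk knockdown replicate 2, against 117 to 119.5 CPM in the other labelled libraries. Kcnj3 was at 102.8 CPM in labelled replicate 4, against 35.82 to 39.67 CPM in the other labelled libraries. Kcne1 was at 5.943 CPM in labelled replicate 4, against 2.054 to 2.178 CPM in the others of that group. Kcnj2 was at 24.94 CPM in wildtype replicate 4, against 13.71 to 14.99 CPM in the other wildtype libraries. Kcne4 was at 6.427 CPM in wildtype replicate 2, against 2.724 to 3.123 CPM in the rest of wildtype. Hcn3 was at 0 CPM in wildtype replicate 3, against 0.1358 to 0.1629 CPM in the rest, on few counts. Labelled replicate 4 also held the highest sum of the atrial markers Sln, Myl7, Myl4 and Bmp10, and wildtype replicate 2 the most fibroblast marker transcripts. Their part in these values was not tested.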

How the results depend on the processing

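Across 22 alternatives the number of channel genes called was 0 in 17. It was 1 with DESeq2 and 1 with limma on log2(FPKM + 1) or log2(FPKM + 0.1) (Kcnj4, log2 fold changes 0.34 and 1.65). With 1 library left out it was 0 to 1, being 1 without wildtype replicate 1. It was also 1 without wildtype replicate 4 (Hcn2), the only wildtype library within the labelled range for that gene. Over all genes, edgeR called 115. DESeq2 called 672, limma on log2(FPKM + 1) 70, on log2(FPKM + 0.1) 69, and without a filter 21. The count was 49 with the atrial score and 16 with the hepatocyte score as covariate, 6 in the 5 libraries low in atrial markers and 42 in the 5 with hepatocyte transcripts. With 1 library left out it ran from 44, without labelled Mertk knockdown replicate 3, to 265, without wildtype replicate 1. Of the 35 partner and regulator genes DESeq2 called 4, against 672 of 17724 genes over all, and edgeR called 0 of the 35. The cause of these differences was not tested.

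With the replicate number as a block, 0 channel genes and 24 of all genes were called. The correlation of same-numbered libraries was 0.0615, 6.3e-05, −0.00646 and 0.181, so the numbers were not taken as pairs.

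Hepatocyte markers were high in all labelled libraries and, of wildtype, in replicate 1 alone. Values adjusted for the hepatocyte score therefore rest largely on that wildtype library and show no reversal between the groups. With the score as covariate the sign turned for Scn4a (−0.15), Kcnip2 (−0.40), Kcnh2 (0.22), Kcna4 (0.36), Scn4b (−0.20) and Kcnk3 (−0.06). Within the 5 libraries with hepatocyte transcripts, which hold 1 wildtype library and so show no reversal between the groups, it turned for Scn4a (−0.05), Kcnip2 (−0.36), Kcnh2 (0.19), Kcna4 (0.26), Scn4b (−0.24) and Kcnk3 (−0.01). It turned for Kcnj3 without labelled replicate 4 (−0.34) and for Hcn4 in the libraries low in atrial markers (0.19). These turns exceeded the SE over all libraries, and smaller ones occurred among other genes near 0, such as Scn3b without labelled replicate 1 (−0.37), Scn8a without wildtype replicate 3 (−0.19), Kcnab1 without wildtype replicate 1 (0.27) and Scn2b without labelled replicate 3 (0.23). The cause was not tested. Genes near the count filter, such as Kcnj4, Kcnrg and Hcn3, have intervals wider than 4 log2 units and may leave large differences undetected.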
